A study of Equus caballus with 25 samples.

Results

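B2M, CD74 and OAS2 are genes of antigen presentation and antiviral defence, and their messenger RNA was measured over the estrous cycle in equine endometrium, the inner lining of the uterus. All probes of the array whose RefSeq transcript belongs to horse B2M, CD74 or OAS2 were taken, which gave 2 probes for B2M, 1 for CD74 and 6 for OAS2. These are 9 of the 43603 probes on the array and 3 of the 620 genes that could be named. All 9 probes were well above background on all 25 arrays, and 0 of their spots were saturated. The study took transcervical biopsies from 5 normally cycling Bavarian Warmblood mares on 5 days of the cycle, with day 0 as the day of ovulation, and hybridised each to a one-colour Agilent array. Day 0 was labelled estrus, just after ovulation. Day 3 was labelled early diestrus (early luteal phase), day 8 diestrus (mid luteal phase), day 12 late diestrus (late luteal phase) and day 16 early estrus (start of the ovulatory phase). Each day had 5 arrays, 1 from each mare, and no treatment or genotype differed between the days. Biopsies came from different cycles, and those from the same cycle were at least 9 days apart. The labels do not give the mares' ages.

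MHC class I molecules sit on nearly all nucleated cells and show peptides from inside the cell to cytotoxic T cells. B2M encodes beta-2-microglobulin, the light chain that class I heavy chains need to fold and reach the cell surface. MHC class II molecules are carried mainly by dendritic cells, macrophages and B cells, and CD74 encodes the invariant chain that guides class II molecules to the compartment where they take up peptides. OAS2 encodes an oligoadenylate synthetase, an enzyme induced by interferons. On binding double-stranded RNA these enzymes make 2′-5′-linked oligoadenylates, a signal that leads to the degradation of RNA in the cell. Interferons also raise B2M, and interferon gamma raises class II genes and CD74.

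A level below is the log2 processed signal of a probe minus the 75th percentile of its array, so 0 is the signal of a fairly bright probe. The 75th percentile of the arrays lay between 698 and 3701 signal units. Its median was 895 on day 0, 1720 on day 3, 1559 on day 8, 1868 on day 12 and 2001 on day 16, so day 0 arrays were dimmer. The share of spots well above background was 70.3% to 88.1%. The arrays came from 7 slides with 3 or 4 arrays each. Slides 1 to 5 each held arrays of 1 mare number only, while slides 6 and 7 held several mare numbers. Differences were tested with limma in 1 model of 25 arrays, and a change was called at an adjusted p under 0.05 over the 35769 probes tested. By this rule 35.8% of all tested probes differed over the 5 days. The median log2 difference over all tested probes was -0.11 for day 3 minus day 0 and 0.15 for day 12 minus day 3, and lay within 0.08 of 0 for the other pairs of days. After quantile normalization these 2 medians were 0.01 and 0.04.

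The mare numbers of some arrays did not match the expression patterns of the mares. EQMHCC1, an MHC class I gene, was measured by the probe A_69_P001691. MHC class I genes vary greatly between horses. In mare 3 its level was -6.07 on day 0, -5.91 on day 8, -5.61 on day 12 and -5.42 on day 16, but -0.40 on day 3. In mare 2 its level was -5.50 on day 0 and between -0.18 and 1.30 on the other days. All other arrays lay between -0.17 and 2.33. Each array was also compared with the mares' means on the other 4 days, over the 50 probes that differed most between mares on those days. By this comparison 22 of 25 arrays were closest to their own mare number. Most arrays shared their slide only with their own mare number, so likeness to a mare could not be told apart from likeness to a slide. The arrays closest to another number, named next, were on slides 6 and 7, which held several mare numbers. The array labelled day 0 mare 2 was closest to mare 3, with a Pearson r of 0.894 against 0.817 with its own number. The array labelled day 3 mare 3 was closest to mare 2, with r of 0.958 against 0.845. The array labelled day 16 mare 2 was closest to mare 3 by a small margin, 0.933 against 0.905. The day of an array was taken from its label throughout, and what lies behind these mismatches was not tested. The model used has no mare term, so it does not rest on mare numbers, but values quoted by mare do. Results that changed without the arrays labelled day 0 mare 2 and day 3 mare 3 are given with both values.

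**Figure D1:**
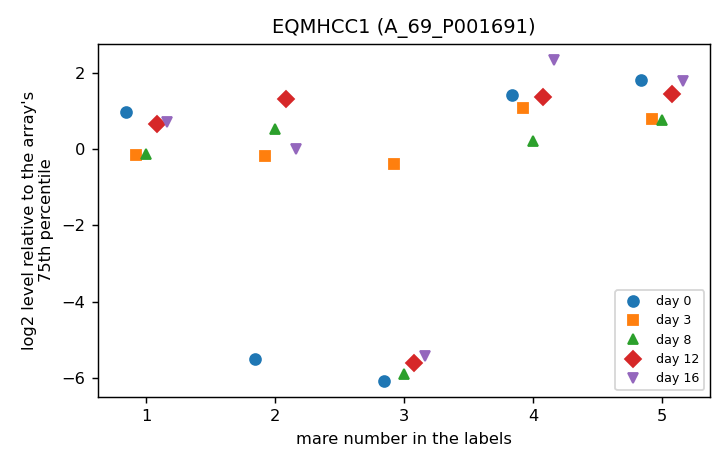
Level of EQMHCC1 (log2, relative to the 75th percentile of the array) for each of the 25 arrays, by the mare number in the labels, with a symbol for each day. Of the 5 arrays at -5.42 or below 4 are labelled mare 3 and 1 is labelled mare 2, and the array labelled day 3 mare 3 lies at -0.40.

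B2M transcripts were high on day 0, low on days 3 and 8, and highest on day 16. The level of its brighter probe, A_69_P000456, fell by 0.94 ± 0.19 on the log2 scale (SE) on day 3 relative to day 0, which is 1.91-fold lower. It rose by 0.72 ± 0.19 on day 16 relative to day 12, which is 1.64-fold higher. Day 16 was 2.45-fold higher than day 3 and 2.08-fold higher than day 8. In biopsies of whole tissue, a change in the number of cells of a type and a change in RNA per cell cannot be told apart.

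In mares 1 to 5, the B2M level was 5.66, 5.83, 5.38, 4.90 and 5.49 on day 0. On day 3 it was 4.36, 4.58, 4.66, 4.73 and 4.24. Every day 3 array was thus below every day 0 array. On day 8 the level was 4.82, 4.97, 5.13, 4.21 and 4.62, and on day 12 it was 5.26, 5.51, 4.94, 4.91 and 4.82. On day 16 it was 5.79, 5.90, 5.68, 6.08 and 5.59, above every array of days 3, 8 and 12 and overlapping only with day 0. The means were 5.45 ± 0.35 on day 0, 4.51 ± 0.21 on day 3, 4.75 ± 0.36 on day 8, 5.09 ± 0.29 on day 12 and 5.81 ± 0.19 on day 16 (SD, n = 5 each).

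**Figure D2:**
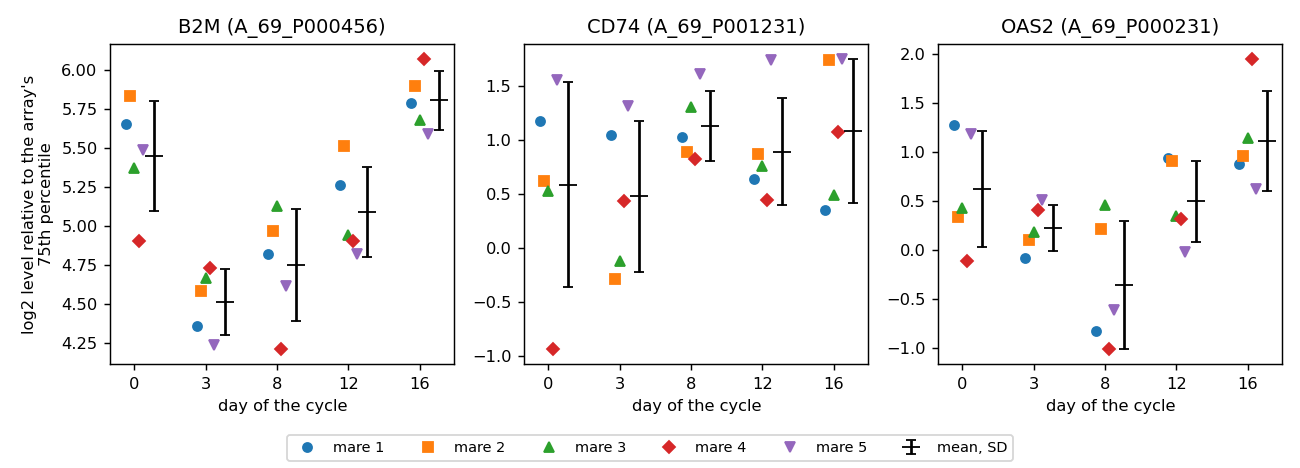
Levels of B2M, CD74 and OAS2 (log2, relative to the 75th percentile of the array), each by its brightest probe, on the 5 days of the cycle. Points are arrays with a symbol for each mare number in the labels, and the bar beside them is the mean with its SD (n = 5). B2M day means run between 4.51 on day 3 and 5.81 on day 16, CD74 values of different days overlap, and OAS2 is lowest on day 8 and highest on day 16.

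Over the 5 days the adjusted p of B2M was 0.000101 (limma F test), rank 1687 of the 35769 probes. Of the successive days 2 comparisons were called. Day 3 against day 0 had an adjusted p of 0.00351, in a comparison where 12.7% of probes were called and 7.79% had groups that did not overlap. Day 16 against day 12 had an adjusted p of 0.0217, where 8.07% were called and 6.55% did not overlap. Day 8 minus day 3 was 0.24 ± 0.19 (adjusted p 0.480), day 12 minus day 8 was 0.34 ± 0.19 (adjusted p 0.409), and day 0 minus day 16 was -0.36 ± 0.19 (adjusted p 0.324). None of these 3 was called, in comparisons where 13.8%, 1.1% and 4.71% of probes were. Day 12 minus day 0, also not called, was -0.36 (adjusted p 0.220; 17.9% of probes called). Days further apart gave 4 called changes. Day 16 was higher than day 3 by 1.29 (adjusted p 0.000124; 13.8% of probes called and 8.02% without overlap) and higher than day 8 by 1.06 (adjusted p 0.000567; 15% called and 11.9% without overlap). Day 8 was lower than day 0, with a difference of -0.70 (adjusted p 0.0112; 21.9% called). Day 12 was higher than day 3 by 0.58 (adjusted p 0.0409; 17.9% called and 14.2% without overlap). In order of level the days were 3, 8, 12, 0 and 16, and no neighbours in that order differed by the test. The change between day 16 and day 3 was larger in size than that of 94.1% of all tested probes.

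Within slides that held both days, day 3 minus day 0 of B2M was -0.99, -0.17 and -1.26 in 3 slides, with 1 array a day in each. Day 16 minus day 12 was 0.53, 0.74 and 1.17 in 3 slides. Day 16 minus day 3 was 1.43, 1.23, 1.34 and 1.36 in 4 slides, and day 16 minus day 8 was 0.97, 1.69, 0.55 and 0.97. All of these kept the direction of the pooled value, as did day 8 minus day 0 at -1.45 and -0.87 and day 12 minus day 3 at 0.91, 0.93 and 0.17. With mare and slide both in the model, day 16 against days 3 and 8 stayed called, while day 3 minus day 0 was -0.77 (adjusted p 0.149) and day 16 minus day 12 was 0.67 (adjusted p 0.101). In that model day 8 minus day 0 was -0.39 (adjusted p 0.446) and day 12 minus day 3 was 0.62 (adjusted p 0.0676). With slide alone as a term, day 12 minus day 3 was 0.53 (adjusted p 0.0994).

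The call of day 16 against day 12 for B2M depended on single arrays. It was lost without the day 12 array of mare 3, 4 or 5 or the day 16 array of mare 4, with adjusted p of 0.0547 to 0.0634 and values of 0.65 to 0.68. It was also lost without all arrays of any 1 mare, with adjusted p up to 0.106. Day 12 against day 3 was lost without the day 3 array of mare 1, 2 or 5 or the day 12 array of mare 1, 2 or 3, with adjusted p of 0.0549 to 0.123. It was lost too without mare 1, 2, 3 or 5, with adjusted p up to 0.180. Day 8 against day 0 was lost without mare 1, 2 or 5, with adjusted p up to 0.0605. Day 3 against day 0, day 16 against day 3 and day 16 against day 8 stayed called in all 30 such fits. Without the 2 arrays that followed another mare number, day 3 minus day 0 was -0.88 (adjusted p 0.0181), and all 6 calls held.

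The second B2M probe, A_69_P000457, also had its lowest mean on day 3 and its highest on day 16. Its levels averaged 4.22 ± 0.45 on day 0, 3.29 ± 0.24 on day 3, 3.45 ± 0.41 on day 8, 3.85 ± 0.27 on day 12 and 4.58 ± 0.17 on day 16 (SD, n = 5 each). Its changes were -0.94 for day 3 minus day 0 (adjusted p 0.00658) and 0.73 for day 16 minus day 12 (adjusted p 0.0336). Days 3 and 0 overlapped with this probe, since the day 3 array of mare 4 had 3.63 and its day 0 array 3.49. Day 12 minus day 3 was 0.56 and was not called with this probe (adjusted p 0.0733). Over the 25 arrays the 2 probes had a Pearson r of 0.979, and their difference on the same array was not shown to change with the day (p = 0.886, permutation test with 100000 resamples). Probes of a gene share the array and its labelled RNA, so they are not replicates. With this probe day 3 against day 0 was lost without mare 1, 2 or 5 (adjusted p up to 0.0678), and in slide 4 it was 0.14, against -0.17 with the brighter probe. Day 8 against day 0 was lost without the same mares (adjusted p up to 0.0701). Day 16 against day 12 was lost without the day 12 array of mare 1, 3, 4 or 5, the day 16 array of mare 2 or 4, or mare 1, 2, 3 or 5 (adjusted p up to 0.154). With mare and slide both in the model, A_69_P000457 gave -0.68 for day 3 minus day 0 (adjusted p 0.229), -0.34 for day 8 minus day 0 (adjusted p 0.558) and 0.76 for day 16 minus day 12 (adjusted p 0.0884), while day 16 against days 3 and 8 stayed called.

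**Figure D3:**
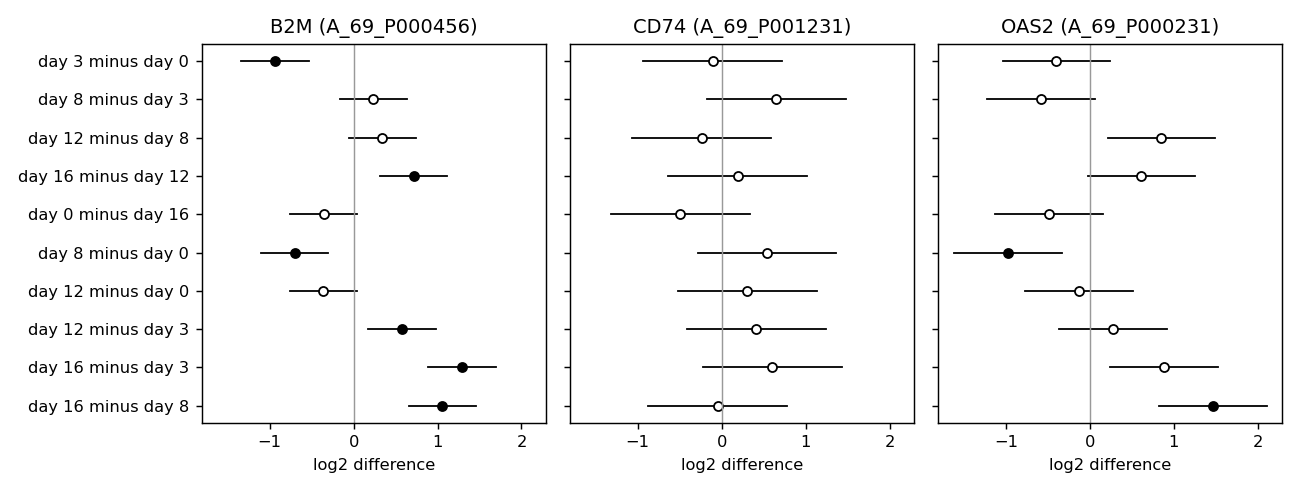
Differences in level (log2) between days for B2M, CD74 and OAS2, each by its brightest probe, with 95% confidence intervals from limma and 5 arrays a day. Filled circles passed an adjusted p of 0.05, which is 6 of 10 pairs for B2M, 0 of 10 for CD74 and 2 of 10 for OAS2. Over all tested probes 1.1% to 21.9% were called, depending on the pair of days.

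CD74 did not change by the test between any of the days. Its probe, A_69_P001231, had an adjusted p of 0.494 over the 5 days (rank 28907 of 35769). In mares 1 to 5, its level was 1.17, 0.62, 0.53, -0.94 and 1.55 on day 0 and 1.04, -0.28, -0.12, 0.43 and 1.31 on day 3. On day 8 the level was 1.03, 0.89, 1.30, 0.82 and 1.61, and on day 12 it was 0.64, 0.87, 0.76, 0.45 and 1.73. The arrays of day 16 had 0.35, 1.74, 0.49, 1.07 and 1.75. All days overlapped with each other, and mare 5 had the highest value on every day. Day means were 0.59 ± 0.95, 0.48 ± 0.70, 1.13 ± 0.32, 0.89 ± 0.50 and 1.08 ± 0.66 on days 0, 3, 8, 12 and 16 (SD, n = 5 each).

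The largest difference between days for CD74 was 0.65 ± 0.40 for day 8 minus day 3 (adjusted p 0.319). Its 95% interval ran from -0.18 to 1.48, so the arrays leave a wide range for this difference. Of the variance of CD74 16.3% lay between days and 41.0% between mare numbers. The medians over all tested probes were 33.6% and 18.3%. By their brightest probes the shares were 76.6% and 8.05% for B2M and 53.6% and 1.64% for OAS2. With the other OAS2 probes they were 52.0% to 57.0% and 1.92% to 7.46%. Mare numbers largely coincided with slides, and the part of the slide in these shares was not tested. The sign of day 3 minus day 0 of CD74 depended on single arrays: it was -0.11 with all arrays and 0.05 without the 2 arrays that followed another mare number. It was also above 0, at 0.025 to 0.13, without the day 0 array of mare 1 or 5, without the day 3 array of mare 2 or 3, or without mare 2 or 3. Over the 25 arrays the CD74 level had a Pearson r of 0.45 with the log2 75th percentile of the array. By their brightest probes B2M had -0.03 and OAS2 had 0.26, while the other OAS2 probes had 0.37 to 0.40. The level and the percentile come from the same array. With this percentile as a covariate the adjusted p of CD74 over the days was 0.345.

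OAS2 was lowest on day 8 and highest on day 16. By its brightest probe, A_69_P000231, day 16 was 2.76-fold higher than day 8, and day 8 was 1.97-fold lower than day 0. In mares 1 to 5, the level was 1.27, 0.33, 0.43, -0.11 and 1.18 on day 0 and -0.08, 0.11, 0.18, 0.40 and 0.50 on day 3. On day 8 it was -0.83, 0.21, 0.46, -1.01 and -0.62, so that mares 2 and 3 lay within the range of day 3 and the other mares well below it. On day 12 it was 0.93, 0.91, 0.34, 0.31 and -0.02, and on day 16 it was 0.88, 0.96, 1.15, 1.95 and 0.62. Every day 16 array was above every array of days 3 and 8. The means were 0.62 ± 0.59, 0.22 ± 0.23, -0.36 ± 0.65, 0.50 ± 0.41 and 1.11 ± 0.51 on days 0, 3, 8, 12 and 16 (SD, n = 5 each).

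The adjusted p of OAS2 over the 5 days was 0.00852 (limma F test, rank 7354 of 35769). No comparison of successive days was called, where 1.1% to 13.8% of all tested probes were. The largest successive difference was day 12 minus day 8 at 0.85 ± 0.31 (adjusted p 0.174, 1.1% of probes called). Day 16 minus day 8 was 1.47 ± 0.31 (adjusted p 0.00210, 15% of probes called). Day 8 minus day 0 was -0.98 ± 0.31 (adjusted p 0.0257, 21.9% called). Day 16 minus day 3 was 0.89 ± 0.31 and missed the threshold (adjusted p 0.0597), although the 2 days did not overlap, as was the case for 8.02% of probes. In order of level the days were 8, 3, 12, 0 and 16, and neighbours in that order did not differ by the test. Within slides, day 16 minus day 8 was 1.70, 1.97, 0.68 and 1.24 in 4 slides, and day 8 minus day 0 was -2.29 and -1.80 in 2 slides.

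The fall on day 8 against day 0 for OAS2 was less stable than the rise on day 16 against day 8, which stayed called in all 30 fits that left out an array or a mare. Day 8 against day 0 was lost without the day 0 array of mare 1 or 5 or the day 8 array of mare 1, 4 or 5, with adjusted p of 0.0588 to 0.0818. It was also lost without mare 1 (-0.70, adjusted p 0.189) or mare 5 (-0.77, adjusted p 0.148). With mare and slide both in the model it was -0.76 (adjusted p 0.395), and the F test over the days had an adjusted p of 0.0977. With only the arrays of days 8 and 0 in the fit its adjusted p was 0.0745. Without the 2 arrays that followed another mare number it was -1.05 (adjusted p 0.0359).

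The other 5 OAS2 probes, A_69_P003061 to A_69_P003065, were also lowest on day 8 and highest on day 16. Their order of days by mean level was 8, 3, 0, 12 and 16, whereas A_69_P000231 had day 0 above day 12. Day 12 minus day 0 was 0.12 to 0.28 with the 5 probes and -0.13 with A_69_P000231, and none of the 6 was called. Their adjusted p over the 5 days were 0.0109, 0.00745, 0.00698, 0.00513 and 0.00563, so all 6 OAS2 probes were called. Over all tested probes 35.8% were called by this F test. Day 16 minus day 8 was called with all 5, at 1.44 to 1.50 (adjusted p 0.00107 to 0.00257), where 15% of all tested probes were called. A_69_P003061 lost this call with mare and slide both in the model (1.34, adjusted p 0.0530). For A_69_P003065, levels in mares 1 to 5 were -2.42, -1.74, -1.16, -2.65 and -2.41 on day 8 and -0.76, -0.42, -0.77, 0.17 and -1.13 on day 16. With this probe and A_69_P003062 day 16 lay above day 8 without overlap, as for 11.9% of all tested probes, while the 2 days overlapped with A_69_P003061, A_69_P003063 and A_69_P003064. On day 3 its levels were -1.69, -1.72, -1.66, -1.50 and -1.17. The pairwise Pearson r among these 5 probes over 25 arrays was 0.980 to 0.997, and with A_69_P000231 it was 0.921 to 0.951. The array carries many sets of 5 probes with consecutive numbers for 1 target. The median r among the probes of the OAS2 set was 0.988, and over 1984 such sets this value had a median of 0.976.

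**Figure D4:**
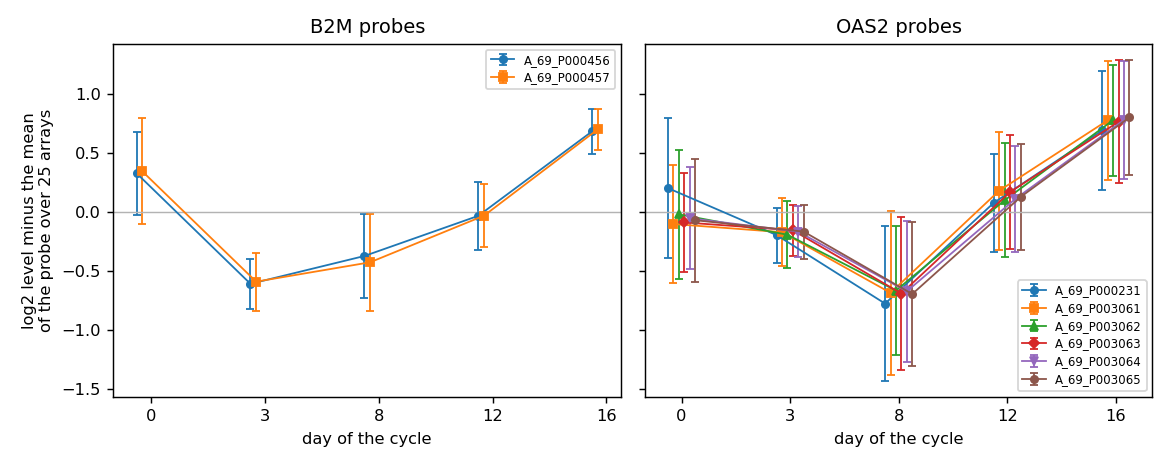
Day means of each probe of B2M and OAS2 (log2 level minus the mean of that probe over 25 arrays), with SD (n = 5 arrays a day). The 6 OAS2 probes share the low on day 8 and the high on day 16, and A_69_P000231 lies above the other 5 on day 0.

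The OAS2 probes gave different calls in 2 comparisons. Day 8 minus day 0 was called with A_69_P000231 at -0.98, and was -0.58 to -0.65 with the other 5 (adjusted p 0.127 to 0.205). Day 16 minus day 3 was called with those 5, at 0.92 to 0.97 (adjusted p 0.0272 to 0.0475), and missed the threshold with A_69_P000231. In these 2 comparisons 21.9% and 13.8% of all tested probes were called. The difference between probes was tested on the same arrays for all 15 pairs of OAS2 probes. None passed after Benjamini-Hochberg adjustment over 16 pairs, which include the B2M pair (permutation test, 100000 resamples). Unadjusted, 3 pairs had p under 0.05, all with A_69_P000231. The log2 difference A_69_P000231 minus A_69_P003065 was 2.07 ± 0.17 on day 0, 1.77 ± 0.12 on day 3, 1.72 ± 0.15 on day 8, 1.75 ± 0.19 on day 12 and 1.69 ± 0.20 on day 16 (SD, n = 5 each; p = 0.0119, adjusted p 0.157, permutation test). The offset itself is a property of the probes, and only its change with the day was tested. The pair with A_69_P003063 had p = 0.0196 and the pair with A_69_P003064 had p = 0.0337 (permutation tests; adjusted p 0.157 and 0.180). The 5 calls of day 16 against day 3 were all lost with slide as a term (adjusted p 0.0592 to 0.0871), with mare and slide both in the model (0.122 to 0.155) and with only those 2 days in the fit (0.0557 to 0.0741). They did not hold either without the arrays labelled day 0 mare 2 and day 3 mare 3, with adjusted p of 0.0576 to 0.1003. They were lost with all 5 probes without the day 3 array of mare 1, 2 or 3, the day 16 array of mare 2 or 4, or mare 1, 2, 3 or 4, with adjusted p up to 0.187. With some of the probes they were also lost without the day 3 array of mare 4 or the day 16 array of mare 1 or 3, and with A_69_P003061 in 20 of 30 fits that left out an array or a mare. In slide 5, with 1 array a day, day 16 minus day 3 was -0.21, -0.11, -0.16 and -0.02 with probes A_69_P003061 to A_69_P003064.

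Other genes of MHC class I presentation could be followed through few probes. Of a list of 25 genes, 4 had a named and tested probe. B2M was the 1 called over the 5 days, where 35.8% of all tested probes were called. MHCB3, a class I heavy chain gene, had levels of 3.50 ± 0.59, 3.11 ± 0.23, 3.15 ± 0.42, 3.70 ± 0.50 and 3.84 ± 0.48 on days 0, 3, 8, 12 and 16 (SD, n = 5 each; adjusted p 0.135). MHCX1, another class I gene, had 2.62 ± 0.41, 2.47 ± 0.11, 2.54 ± 0.39, 3.09 ± 0.36 and 3.09 ± 0.45 (adjusted p 0.0648). With mare as a block both were called, with adjusted p of 0.0376 and 0.0350, and MHCX1 was also called after quantile normalization (adjusted p 0.0223). Both were called with slide as a term (0.0363 and 0.0166) and with mare and slide both in the model (0.0208 and 0.0152). MHCB3 stayed uncalled in 7 of 10 alternatives and MHCX1 in 5 of 10. EQMHCC1 had an adjusted p of 0.885, with the split between mares given above. With mare and slide both in the model its adjusted p was 0.0396. The median of the 4 genes for day 16 minus day 12 was 0.09, against -0.07 over all tested probes. Sequence-similar class I genes may share signal on a probe, which was not tested. Of 27 genes of class II presentation, CD74 was the only one with a named and tested probe.

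**Figure D5:**
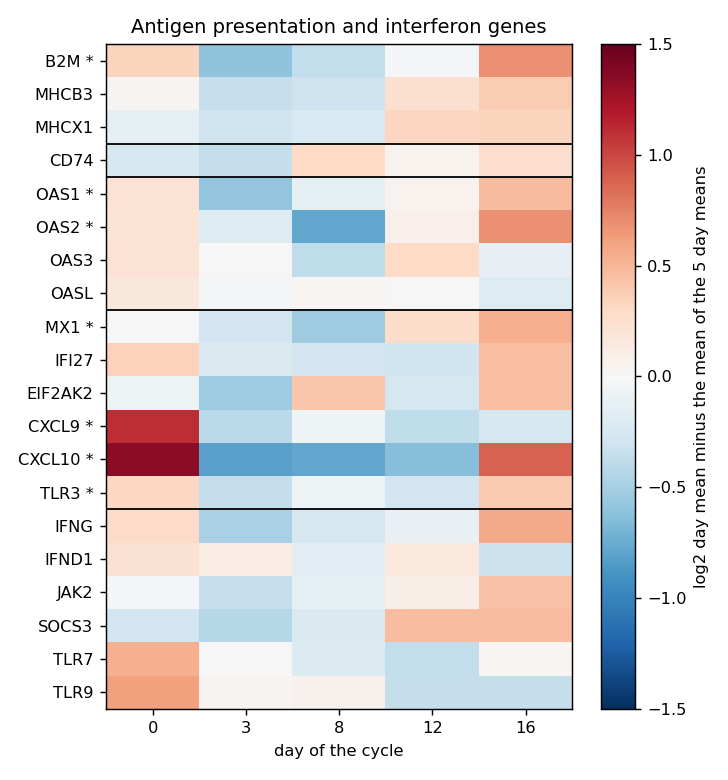
Day means of the named and tested genes of the pathway lists (log2 level minus the mean of the 5 day means of the gene), in blocks for class I, class II, the OAS family, other interferon-stimulated genes and interferon signalling. A star marks an adjusted p under 0.05 over the 5 days, EQMHCC1 is not drawn, and CXCL10 and B2M show their highest values on days 0 and 16.

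The 4 OAS genes listed were all on the array. OAS1 and OAS2 were called over the 5 days, where 35.8% of all tested probes were called. OAS1, which also makes 2′-5′ oligoadenylates, had levels of 2.93 ± 0.51, 2.13 ± 0.50, 2.56 ± 0.40, 2.77 ± 0.33 and 3.19 ± 0.56 on days 0, 3, 8, 12 and 16 (SD, n = 5 each; adjusted p 0.0478). It was called with all 4 of its probes, and day 16 was higher than day 3 by 1.06 ± 0.29 (adjusted p 0.0164). That difference was lost without the day 16 array of mare 4 or without mare 3 (adjusted p 0.0557 and 0.0751), and its F test in 22 of 30 fits that left out an array or a mare (adjusted p up to 0.137). OAS3, the longest family member, and OASL, a family member without synthetase activity in humans, were not called, with adjusted p of 0.454 and 0.533. The median of the 4 genes for day 16 minus day 12 was 0.11.

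Of 46 other interferon-stimulated genes, 6 had a named and tested probe. Of these 4 were called over the days, where 35.8% of all tested probes were called. CXCL10, a chemokine for T cells, had levels of -1.48 ± 0.43 on day 0, -3.63 ± 0.47 on day 3, -3.60 ± 0.45 on day 8, -3.46 ± 0.62 on day 12 and -1.93 ± 0.81 on day 16 (SD, n = 5 each; adjusted p 3.45e-05). CXCL9, a related chemokine, fell by 1.51 on day 3 relative to day 0 (adjusted p 0.0176), and its day 16 minus day 12 was 0.12 (adjusted p 0.894). Over the days 1 of the 2 CXCL9 probes was called (adjusted p 0.0199). The fall of CXCL9 was lost in 5 of 30 fits that left out an array or a mare. It was also lost with the log2 75th percentile as a covariate (adjusted p 0.0631). MX1, an antiviral GTPase, was higher on day 16 than on day 8 by 1.08 ± 0.31 (adjusted p 0.0194). It was called over the days with 1 of its 2 probes (adjusted p 0.0445), a call lost in 23 of 30 fits that left out an array or a mare. Its day 16 against day 8 was lost without the day 8 array of mare 1 or 4, the day 16 array of mare 4, or mare 1 or 4, with adjusted p up to 0.137. TLR3, a sensor of double-stranded RNA, was higher on day 16 than on day 3 by 0.75 ± 0.23 (adjusted p 0.0274), a call lost in 9 of 30 such fits. The F test of TLR3 was lost in 4 of these fits and that of CXCL9 in 7. Without the 2 arrays that followed another mare number, the F tests of OAS1, MX1, CXCL9 and TLR3 had adjusted p of 0.125, 0.0778, 0.0539 and 0.0646. With mare and slide both in the model those of OAS1, MX1 and TLR3 were 0.201, 0.101 and 0.140, and the differences named above were lost too, with adjusted p of 0.0653 for OAS1, 0.0581 for MX1, 0.107 for TLR3 and 0.0566 for CXCL9. The median of the 6 genes was -0.62 for day 3 minus day 0 and 0.70 for day 16 minus day 12. IFI27 and EIF2AK2 were not called, with adjusted p of 0.153 and 0.167.

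Of 40 interferon, receptor and signalling genes counted here 6 had a named and tested probe, and 0 of these 6 were called over the days by limma, with 1 at an unadjusted p under 0.05. This was JAK2, a kinase of cytokine receptors, with an adjusted p of 0.0969. Over all tested probes 35.8% were called. JAK2 was higher on day 16 than on day 3 by 0.78 ± 0.24 (adjusted p 0.0313, 13.8% of probes called). That difference was lost in 8 of 30 fits that left out an array or a mare. It was also lost with mare and slide both in the model (adjusted p 0.0511). Over the days TLR7 and TLR9, sensors of nucleic acids, had adjusted p of 0.203 and 0.232, and SOCS3, an inhibitor of cytokine signalling, had 0.452. IFNG, which encodes interferon gamma, was well above background on 1, 0, 1, 2 and 4 of 5 arrays on days 0, 3, 8, 12 and 16 and was not called (adjusted p 0.498). The median of the 6 genes for day 16 minus day 12 was 0.17.

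Markers of several cell types were present in the biopsies. ESRP1, of epithelium, had day means of 2.94 to 3.18 and was not called (adjusted p 0.621). PECAM1, of endothelium, had day means of 0.13 to 0.87 and differed over the days with 1 of its 3 probes (adjusted p 0.0308). It was higher on day 12 than on day 3 by 0.54 ± 0.19 (adjusted p 0.0461). Its F test was lost in 8 of 30 fits that left out an array or a mare, and with mare and slide both in the model (adjusted p 0.0841), and the difference in 20 of 30 and in that model (adjusted p 0.0531). The stromal genes DCN and LUM had day means of 3.50 to 4.93 and 0.36 to 2.49. Both differed over the days (adjusted p 0.000909 and 0.000472), where 35.8% of all tested probes were called. DCN fell by 1.09 ± 0.26 on day 3 relative to day 0 (adjusted p 0.00884) and was higher on day 16 than on day 8 by 1.04 ± 0.26 (adjusted p 0.00840). LUM fell by 1.32 ± 0.35 on day 3 relative to day 0 (adjusted p 0.0162) and rose by 1.64 ± 0.35 on day 16 relative to day 12 (adjusted p 0.00399). The falls on day 3 were not called with mare and slide both in the model, with adjusted p of 0.111 for DCN and 0.0666 for LUM. They were also lost with the log2 75th percentile as a covariate (0.0715 and 0.125), with only the 2 days in the fit (0.0859 and 0.0757), and without mare 1. The fall of LUM was lost too without mare 2, the day 0 array of mare 2 or the day 3 array of mare 1 or 5. Summed over both, the level as a multiple of the 75th percentile of the array was 29.8 to 44.7 on day 0, 8.63 to 25.1 on day 3, 11.8 to 16.1 on day 8, 12.6 to 20.04 on day 12 and 18.2 to 36.9 on day 16. DCN was the brighter gene and made up most of this linear sum. Of 15 T and NK cell markers 4 had a named and tested probe. Of these 2 were called over the days, where 35.8% of all tested probes were called. GNLY, a protein of cytotoxic granules, was higher on day 16 than on day 8 by 1.52 ± 0.27 (adjusted p 0.000389), and CCL5, a chemokine of T cells, by 0.89 ± 0.24 (adjusted p 0.0115). The rise of CCL5 was lost without mare 1 or mare 5 (adjusted p up to 0.0563) and with only the 2 days in the fit (0.0530). Over the days CCL5 was called with 1 of its 2 probes, a call lost with mare and slide both in the model (adjusted p 0.0781). The T cell marker CD2 had day means of -4.02 to -3.89 and an adjusted p of 0.986. The brightest GZMB probe had 0.0823, and 1 of the 2 GZMB probes was called. With mare and slide both in the model the brightest was called too (0.00414). Its day 12 minus day 3 was 1.58 ± 0.49 (adjusted p 0.0264), a call lost in 7 of 30 fits that left out an array or a mare. The summed level of the 4, on the same scale, was 2.95 to 11.7 on day 0, 2.95 to 5.70 on day 3, 3.19 to 11.2 on day 8, 6.06 to 30.7 on day 12 and 7.69 to 20.5 on day 16. GZMB was the brightest of the 4 and made up most of this linear sum, so the sum is not a joint course of the markers. Of 10 macrophage and dendritic cell markers 3 had a named and tested probe. CD14 was higher on day 16 than on day 8 by 1.18 ± 0.27 (adjusted p 0.00468), where 15% of all tested probes were called. This call was lost with mare and slide both in the model (adjusted p 0.0720), as was its F test (0.0510). CD68 and ITGAX were not called over the days (adjusted p 0.0790 and 0.898), where 35.8% of all tested probes were. The summed level of these 3 was 1.12 to 2.18 on day 0, 1.13 to 1.52 on day 3, 0.92 to 1.28 on day 8, 1.79 to 3.097 on day 12 and 1.58 to 5.17 on day 16. Most of this sum came from CD14, the brightest of the 3. The leukocyte marker PTPRC, B cell markers and red cell markers had no probe that could be named here. The part of these cells in the changes of B2M and OAS2 was not tested.

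Among 512 named genes with a tested probe, those most like each gene over the 25 arrays were listed by Pearson r of the levels. OAS2 was most like MX1 (r = 0.83), B2M (0.77), CD40 (0.76), IL23A (0.76) and PIM1 (0.75). Among the genes most like B2M were PPARGC1A (0.86), NR5A2 (0.83), MET (0.81) and ARID5B (0.79). For CD74 the highest values were lower, with EPHB1 and GZMB at 0.60 and ATP6V0C, SAA and BUB3 at 0.58. The median r over all the genes compared was 0.12 for B2M, -0.04 for CD74 and 0.12 for OAS2. Between B2M and OAS2 the r was 0.77 for the levels and 0.69 for the deviations of arrays from their day means. CD74 had r of 0.17 with B2M and 0.13 with OAS2. These values share arrays and their scaling and are given as a description.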

How the data were processed

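Total RNA of 25 biopsies was labelled with Cy3 and hybridised to one-colour Agilent arrays, per the labels' protocols. The deposited scanner files hold intensities. Per the file headers, background was subtracted and spatial trends were removed within arrays by the authors' scanner software, named as Agilent Feature Extraction 10.7.3.1 in the submitters' processing notes. The deposited value table equalled the processed signal. Here log2 intensities were taken and scaled by subtracting each array's 75th percentile. Outlier spots were set to missing and spots of a probe averaged. Probes well above background on at least 4 of 5 arrays of some day were tested, which left 35769.

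Days were compared with limma 3.58.1 (R 4.3.3) in 1 model with day as its term, two-sided, with Benjamini-Hochberg adjustment within each comparison. Probe pairs were compared by permutation. Python 3.11.15, pandas 2.3.3, numpy 2.4.6 and matplotlib 3.10.9 were also used. Alternatives covered scaling, background, filters, mare, slide, moderation and left-out arrays. The number of arrays limits the precision.

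Names came from RefSeq genes (assembly TB-T2T) matched by accession, which named 1307 probes of 620 genes. The arrays predate that assembly, so no positions are given. The brightest tested probe stands for a gene. All probes of the 3 genes are described. From each list up to 4 genes with the smallest F test p were named, and all where 5 or fewer were tested. IFI27, EIF2AK2 and IFNG were named outside this rule, after their values were seen. The genes of highest r, up to 5, are given for each gene. Some genes of the lists and of these rankings are not reported here, and the list counts and medians leave them out. The genes and lists were chosen with earlier results of these data known.

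Per the labels, a replicate number stands for 1 mare on all days. As a check, deviations of arrays from their day means were correlated. The median r was 0.25 between arrays of 1 mare number and -0.05 between mare numbers. Within 1 mare number it was 0.37 for arrays on the same slide and 0.12 for arrays on different slides. The fit with mare as a block is an alternative.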

Additional observations from a re-analysis of the deposited data

Results flagged for a closer look

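Each day's 5 arrays were checked for a value far from the others, for the 9 probes of B2M, CD74 and OAS2 and the EQMHCC1 probe. Of 50 such groups 4 had one, where chance alone gives about 1 in 20 for independent groups. These groups were not independent, since probes of a gene share arrays, and EQMHCC1 was chosen with earlier results known. The count is therefore only a description. EQMHCC1 had a level of -5.91 on day 8 in mare 3, with the other 4 arrays between -0.13 and 0.75. On day 12 it had -5.61 in mare 3, with the others between 0.65 and 1.43. With OAS2 probe A_69_P003062 the day 3 array of mare 5 had -1.06, with the others between -1.81 and -1.63. The same array had -1.15 with OAS2 probe A_69_P003063, with the others between -1.68 and -1.61. The brightest OAS2 probe was also highest on that array among day 3 arrays, at 0.50.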

How the results depend on the processing

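For B2M, CD74 and OAS2 the alternatives followed all F tests, successive days by the brightest probe, and every pair called in the main fit. Other uncalled pairs, such as day 16 minus day 3 of OAS2 (A_69_P000231), were not followed. With mare as a replicate block, all followed results kept their direction and their side of the threshold. In that fit the F test adjusted p was 8.42e-05 for B2M and 0.0160 for OAS2 (A_69_P000231). All followed results were also kept with an intensity trend in the moderation and with probes well above background on all 25 arrays. The block also changed no result of the probe pairs. Among genes of the lists it brought the F tests of MHCB3, MHCX1, GZMB and CD68 past the threshold. With mare and slide both as terms, the F test adjusted p of the OAS2 probes A_69_P000231 and A_69_P003061 to A_69_P003065 were 0.0977, 0.123, 0.115, 0.114, 0.115 and 0.113, and 7812 probes were called over the days against 12798. In that fit B2M gave -0.77 for day 3 minus day 0, 0.67 for day 16 minus day 12, -0.39 for day 8 minus day 0 and 0.62 for day 12 minus day 3, none called, OAS2 gave -0.76 for day 8 minus day 0, and CD74 turned to 0.49 for day 3 minus day 0. With slide alone, B2M lost day 12 minus day 3 (0.53), and CD74 turned to 0.15 for day 3 minus day 0 and -0.0056 for day 16 minus day 12. B2M also lost day 12 minus day 3 with normexp background correction (0.53), without the filter on dim probes (0.58) and with only those 2 days in the fit (0.58), and lost day 8 minus day 0 after quantile normalization (-0.56). With only the 2 days compared, day 16 minus day 12 of B2M (0.72) and day 8 minus day 0 of OAS2 (-0.98) missed the threshold; such fits hold fewer arrays. CD74 turned to 0.24 for day 0 minus day 16 with the log2 75th percentile as covariate, and to 0.048 for day 3 minus day 0 without the arrays labelled day 0 mare 2 and day 3 mare 3, both chosen after seeing the data. Taking 1 probe per target left 6620 calls over the days, with fewer probes tested. Apart from that last construction and the fits with fewer arrays, the cause was not tested.

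Within single slides, with 1 array a day, the values furthest from the pooled ones were -2.29 for day 8 minus day 0 of OAS2, and for B2M -0.17 for day 3 minus day 0, 1.17 for day 16 minus day 12, -1.45 for day 8 minus day 0, 0.93 and 0.17 for day 12 minus day 3, and 1.69 and 0.55 for day 16 minus day 8. The direction turned for B2M probe A_69_P000457 in day 3 minus day 0 (0.14) and for OAS2 probes A_69_P003061 to A_69_P003064 in day 16 minus day 3 (-0.21, -0.11, -0.16 and -0.019).

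Leaving out 1 array or 1 mare gave B2M values of 0.47 to 0.68 for day 12 minus day 3, -0.84 to -0.57 for day 8 minus day 0 and 0.60 to 0.82 for day 16 minus day 12. It gave -1.23 to -0.70 for day 8 minus day 0 of OAS2 and -0.49 to 0.13 for day 3 minus day 0 of CD74. The F test adjusted p ranged over 0.00207 to 0.0855, 0.00243 to 0.0669, 0.00133 to 0.0707 and 0.00123 to 0.0515 for OAS2 probes A_69_P003061 to A_69_P003064, with the losses without mare 2 or mare 4. The number of probes called over the days was 7508 to 13979, with 7508 without mare 2 and 7932 without mare 3. For genes of the lists, 74 of 647 results under other settings and 206 of 1860 with arrays left out lost their call. A call was gained in 24 and 11 of them. These totals include F tests that were not called in the main fit and so had no call to lose. Of the differences between days 0 changed direction, and F tests have none.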
